A study of Mus musculus with 2 samples.

Results

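The genes described here are 4 transcription factor genes of innate-like lymphocytes: Zbtb16, Nfil3, Tbx21 and Eomes. Their probes were found by array gene name, RefSeq accession or synonym. Of the 4 genes, 3 were measured, by 4 of the 41174 probes on the arrays that are not controls, and Zbtb16 was matched to no probe and is not analysed here. Nfil3 had 2 probes, and Tbx21 and Eomes had 1 each. All 4 probes passed the filter on dim signal, which left 14920 genes to be tested.

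The study used double-positive (DP) thymocytes, the CD4+ CD8+ stage that precedes selection on the T cell receptor. The Bcl11bF/FCD4Cre/Tcra-/- samples carried a floxed Bcl11b gene and Cre driven from Cd4 control sequences, and TCRa-/- samples were the control. Both groups lacked Tcra, so that their DP cells could not be selected, and Cre and a floxed allele are named for the deficient samples only. Each of 2 arrays held 1 sample of either genotype, the deficient one in Cy5 and the control in Cy3, with no dye swap, so dye and genotype cannot be told apart. The labels give no age, strain background or number of mice per sample. They call the arrays biological replicates and do not say that samples came from separate animals. Every test here therefore rests only on spread between these 2 arrays, with the spread of a gene pooled with that of all genes.

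These factors act in lymphocytes that reach an effector state without the usual activation steps. Zbtb16 encodes PLZF, a BTB zinc finger factor of invariant NKT cells and of innate lymphoid cell precursors. Nfil3 encodes a basic leucine zipper repressor, also called E4BP4, that natural killer (NK) cells and innate lymphoid cells need in order to develop and that also takes part in the circadian clock. Tbx21 and Eomes encode the T-box factors T-bet and eomesodermin, which drive NK cell maturation and interferon gamma production. T cell precursors that lose Bcl11b early are known to take on NK-like features, and here the question is whether these regulators differ once Bcl11b is lost at the DP stage.

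The bases before the transcription start are shown first for the measured members. They set the promoter of Nfil3, the measured member with the highest mean ratio, beside those of the T-box genes. RefSeq, on build GRCm38.p6, held a promoter for 3 of the 4 genes, and 250 bases of each are printed along the gene's own strand. These windows lie at chr13:52981040-52981289 for Nfil3 (minus strand), chr11:97115332-97115581 for Tbx21 (minus strand) and chr9:118477939-118478188 for Eomes (plus strand). Capitals mark matches on either strand to a GC box, spelled GGGCGG. They also mark the CCAAT box, which is spelled as it is named. Matches to TATAA are marked in the same way and called TATA elements.
Nfil3: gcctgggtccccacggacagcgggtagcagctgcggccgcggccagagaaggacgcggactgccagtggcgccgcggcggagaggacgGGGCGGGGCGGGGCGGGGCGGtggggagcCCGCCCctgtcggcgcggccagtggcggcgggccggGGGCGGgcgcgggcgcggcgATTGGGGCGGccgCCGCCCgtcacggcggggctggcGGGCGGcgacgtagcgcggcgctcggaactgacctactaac
Tbx21: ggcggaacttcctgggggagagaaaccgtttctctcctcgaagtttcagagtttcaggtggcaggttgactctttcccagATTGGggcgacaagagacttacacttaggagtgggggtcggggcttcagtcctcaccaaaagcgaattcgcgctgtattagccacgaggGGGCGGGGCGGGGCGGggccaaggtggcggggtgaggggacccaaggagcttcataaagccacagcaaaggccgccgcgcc
Eomes: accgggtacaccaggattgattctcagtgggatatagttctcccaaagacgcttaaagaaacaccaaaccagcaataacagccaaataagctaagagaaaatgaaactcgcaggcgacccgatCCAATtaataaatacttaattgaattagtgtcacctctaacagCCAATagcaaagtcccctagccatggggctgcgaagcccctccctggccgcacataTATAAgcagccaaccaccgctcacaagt
The window of Nfil3 was 81.6% G or C and held 9 GC boxes, a cluster of 4 of which overlapped each other by 1 base, and 1 CCAAT box that shared 1 base with another GC box. Tbx21 had 60.8% G or C, 3 overlapping GC boxes and 1 CCAAT box. Eomes had 46.4% G or C, below the median of 52.4% over all promoters, with no GC box, 2 CCAAT boxes and 1 TATA element whose first base lies 28 bases before the start. Of 32851 promoter windows of the same length, 32.7% held a GC box, 33.8% a CCAAT box and 22.8% a TATA element. Motifs of 5 factor families were also searched on both strands: TTANGTAA for NFIL3 (2.06% of windows), GGTGTGA for T-box factors (3.33%), TGACCA for BCL11 factors (11.4%), TGTGGT for RUNX (14.0%) and CGGAAG for ETS (13.6%). None of the 3 windows held any of these 5 letter strings.

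Nfil3 read higher in the deficient cells on both arrays and by both probes, Tbx21 read slightly higher, and Eomes split between the arrays. None of the 3 passed limma's moderated test over all genes, in which 0 of 14920 genes passed (0% called). At an unadjusted p under 0.05 the test held 1 of the 3 members, Nfil3, as higher, against 15.1% of all genes higher and 14.1% lower. Of the 3 members, 2 read higher on both arrays, against 36.4% of all genes. Members at least 2-fold higher on both arrays numbered 0 (0.818% of all genes), as did members at least 2-fold lower (0.275%). In bulk RNA, a change in the share of cells that express a gene and a change in RNA per cell cannot be told apart.

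Nfil3 was measured by 2 probes on the minus strand of chromosome 13, at 52979932 to 52979991 and at 52979648 to 52979707 in the mm8 build given in the array files. No mm8 annotation was used, so the exon or untranslated region that each probe covers is not given. The probe at 52979648 was the brighter one. Its processed signals, which Feature Extraction corrected for background and dye, were 601 and 565 units in deficient replicates 1 and 2, against 385 and 300.0 in control replicates 1 and 2. By the other probe the deficient samples read 379 and 306 units and the control samples 228 and 141. Both deficient samples lay above both control samples by either probe, and the gap was wider on replicate 2, where the control samples were dimmer.

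After normexp background correction and loess, the brighter Nfil3 probe gave log2 ratios of 0.52 and 0.75 on replicates 1 and 2. They averaged 0.64 ± 0.09 (limma SE, n = 2 arrays) at limma adjusted p = 0.0844. As a fold this is 1.56, with a 95% interval of 1.29 to 1.88. By the other probe the ratios were 0.54 and 0.71 and averaged 0.63 ± 0.08 (limma adjusted p = 0.0987 over all kept probes). Probe means thus differed by less than the SE of either, although both probes share the same 2 arrays and RNA samples and are no independent replicates. Of all genes tested, 3.72% had a higher mean ratio than Nfil3. On replicate 1 alone that share was 4.93%, and on replicate 2 it was 4.01%.

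**Figure D1:**
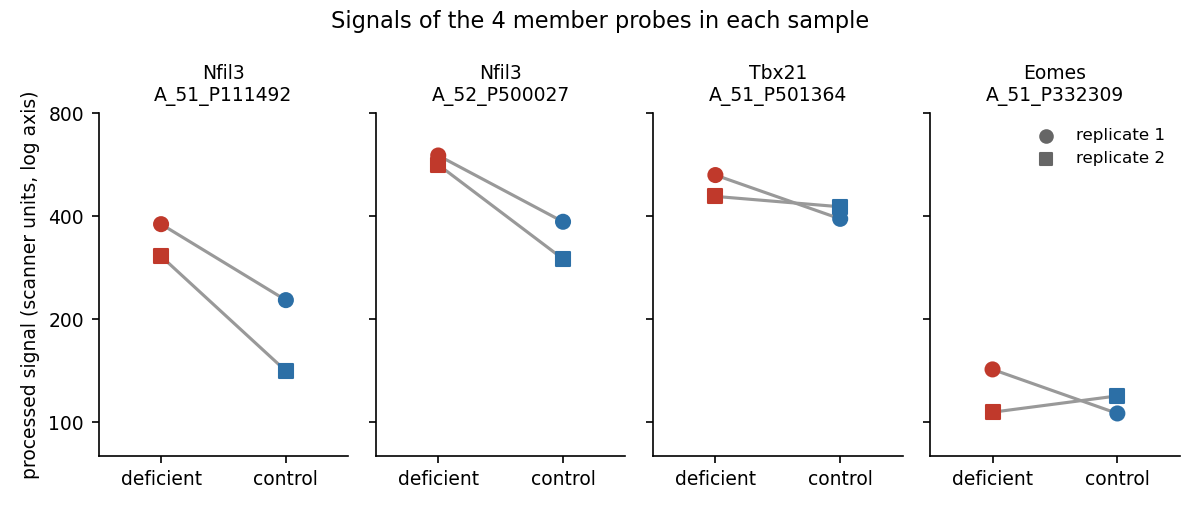
Processed signal (scanner units, log axis) of each member probe in the Bcl11b-deficient and control samples, with circles for replicate 1, squares for replicate 2 and a line joining the samples of 1 array. Lines of both Nfil3 probes and of Tbx21 slope down toward the control on both arrays, while for Eomes replicate 1 slopes down and replicate 2 slopes up.

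The size of the Nfil3 difference depended on how background was treated, and its direction did not. Nfil3 signals stood at 2.69 and 2.32 times the median of the negative control spots in the deficient channel by the dimmer probe, and at 1.80 and 1.42 times in the control channel. The brighter probe stood at 3.87 and 3.72 times in the deficient samples and at 2.47 and 1.96 times in the control samples. With the negative control median subtracted, the brighter probe gave 0.83, and with no background correction 0.53. The call changed with the setting: 4 of 13 tested alternatives put Nfil3 past the threshold, with limma adjusted p from 0.0330 to 0.0496, and the same 4 called 982 to 2184 genes in all. With median centring, 1 of 3 members was called higher, against 5.88% of all genes.

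**Figure D2:**
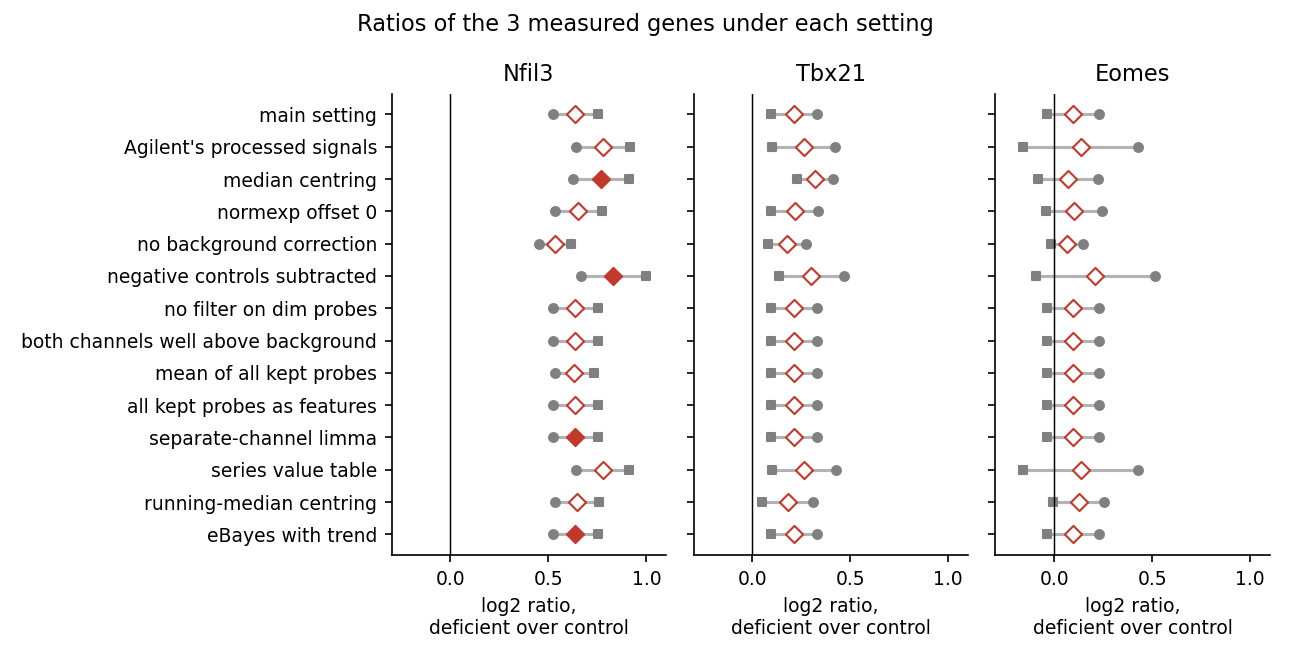
Log2 ratio of deficient over control for the 3 measured genes under the main setting and 13 alternatives, with diamonds for the mean, circles for replicate 1 and squares for replicate 2, and filled diamonds where the limma adjusted p was under 0.05. Every Nfil3 value lies right of 0 and 4 diamonds are filled; both Tbx21 replicates are right of 0 throughout, and the replicate 2 value of Eomes is left of 0 in each setting.

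Tbx21, on the minus strand of chromosome 11, was measured at 96914193 to 96914252 (mm8). Processed signals were 527 and 457 units in deficient replicates 1 and 2, against 393 and 426 in control replicates 1 and 2. The deficient samples thus lay above the control samples without overlap, and the nearest of them, 457 and 426, were the samples of replicate 2. Log2 ratios after loess were 0.33 and 0.10 and averaged 0.21 ± 0.09 (limma adjusted p = 0.233). The fitted ratio was 1.16-fold with a 95% interval of 0.959 to 1.40, which includes no difference. Subtraction of the negative controls gave 0.30 and centring on the median 0.32, and none of 13 alternatives called the gene.

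Eomes, on the plus strand of chromosome 9, was measured at 118333866 to 118333925 (mm8). It read 143 and 107 units in deficient replicates 1 and 2, and 106 and 119.5 in control replicates 1 and 2. The groups overlapped, since deficient replicate 2 lay between the control samples. Log2 ratios were 0.23 and -0.04. They averaged 0.09 ± 0.10 (limma adjusted p = 0.555) with a 95% interval from 0.872-fold to 1.31-fold. Against background, its signals were 1.52 and 1.34 times the negative control median in deficient samples and 1.30 and 1.28 times in control samples. All 4 of these signals were nevertheless marked as well above background, and no negative control spot of the same channel reached them.

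**Figure D3:**
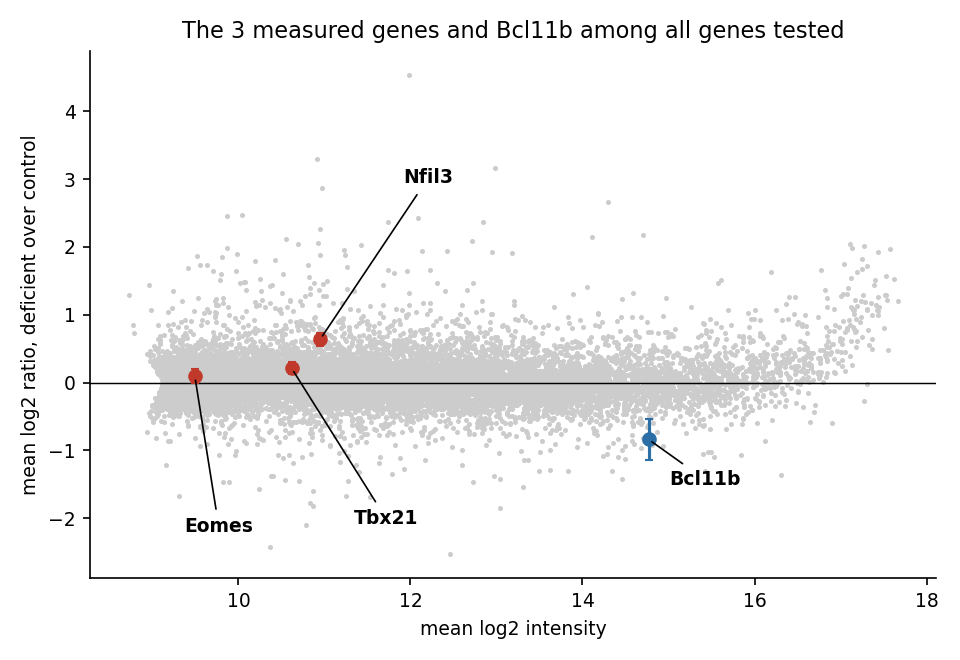
Mean log2 ratio of deficient over control against mean log2 intensity for all 14920 genes tested (grey), with the 3 measured members in red and Bcl11b in blue and bars of 1 SE. Nfil3 lies at 0.64, Tbx21 at 0.21, Eomes at 0.09 and Bcl11b at -0.84, and the cloud bends upward among the brightest genes, far from the members' intensities.

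Bcl11b, the targeted gene, read lower in the deficient cells by both of its probes. The brighter probe gave -1.40 and -0.28 on replicates 1 and 2 and the other probe -1.37 and -2.16, so residual Bcl11b signal was present and the probes parted on replicate 2. All 14 DP thymocyte markers on the arrays (Cd4, Cd8a, Rag1 and others) were well above background in both groups, and their summed processed signal was 310799 to 349092 units in deficient samples and 304933 to 340135 in control samples. The running median of the ratios over genes of like intensity was 0.02 at Nfil3, 0.05 at Tbx21 and -0.02 at Eomes, but 1.26 at Dntt, one of the brightest DP markers. Over the genes tested the 2 arrays' log2 ratios had a Pearson correlation of 0.67 across genes, which are not independent replicates.

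T-bet, eomesodermin and Nfil3 are themselves genes of NK cells, so markers of such cells are given beside them. Of 13 markers of NK cells and innate lymphoid cells, 7 were well above background on both arrays in deficient samples and 6 in control samples. Their summed processed signal was 9043 and 9423 units in deficient samples, against 4375 and 4104 in control samples. Ncr1, which encodes the NK receptor NKp46, was well above background in neither group by this rule, and neither were Klre1, Klri2, Klrc1, Il1rl1 and Itga2. Klrb1c, the NK1.1 receptor gene, read 2.42 and 3.32 on the log2 scale, whereas Prf1, which encodes the pore-forming protein perforin, read -0.09 and -0.34. The remaining tested markers of this list lay between them: Il2rb averaged 0.95, Gzma 0.81, Kit 0.36, Klrk1 0.26 and Klra8 0.03. Gzma was the brightest marker tested, with a mean log2 intensity of 13.4, so the sums rest largely on a few genes. Macrophage or monocyte markers summed to 40350 and 36605 units in deficient samples, against 35351 and 14980 in control samples. Erythroid markers summed to 71920 and 108063 units in deficient samples, against 127666 and 20291 in control samples. Gamma delta T cell markers summed to 4051 and 2707 units in deficient samples, against 1561 and 955 in control samples. Of 5 on the arrays, 3 were well above background in deficient and 2 in control samples, and Sox13 and Il23r in neither group. Cd163l1 was the brightest of the 3 tested, with a mean log2 intensity of 12.7 and a mean log2 ratio of 1.47. Il17a (intensity 9.27) averaged 0.17 and Blk (9.30) -0.20. Trdc, Trgc1 and Trgc2 were matched to no probe. B cell markers summed to 4775 and 3477 units in deficient samples, against 7221 and 4049.5 in control samples. Stromal, epithelial or endothelial markers summed to 10837 and 5276 units in deficient samples, against 10710 and 2494 in control samples. The NK, gamma delta, macrophage and stromal sums were thus higher in the deficient sample on both arrays. On replicate 1 the stromal sums lay close together (10837 against 10710). The DP marker sum was higher on both arrays too, at 349092 against 340135 on replicate 1 and 310799 against 304933 on replicate 2. Such a sum is weighted to the brightest genes. Of the 14 DP markers, 5 were higher and 9 lower on both arrays, against 36.4% and 38.5% of all genes. Their median log2 ratio was -0.17, or 0.26 with median centring. The B cell sum was lower on both, and the erythroid sum differed in direction between arrays. The part that other cells had in the Nfil3 ratio was not tested.

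Lists of related genes were set beside the members by their counts. In each, 0 genes passed limma's adjusted test. The filter kept a gene if it was well above background in either group, which can favour genes that differ. The counts are therefore descriptions of the genes that passed it. The median of all genes tested was -0.00.

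Inputs to T-bet and Eomes are the cytokine receptors, kinases and STAT transducers upstream of them. The list also holds Foxo1, Mtor and Bcl11b itself. All 22 genes of this list were tested, with 10 higher and 4 lower at an unadjusted p under 0.05 (background 15.1% and 14.1%) and 5 higher and 1 lower by separate-channel limma (background 4.75% and 3.83%). The median log2 ratio was 0.18, but 0.07 with both channels well above background, 0.08 with all kept probes and 0.48 with median centring. Il12rb2, the signalling subunit of the interleukin 12 receptor, was at least 2.23-fold higher, its control signal being not well above background on either array. The limma adjusted p of 0.0736 belongs to its fitted log2 ratio of 1.69, not to this bound. Such a bound sets the deficient mean against the lowest signal that counted as well above background. It was not tested and is open to dye bias. Il7r, the interleukin 7 receptor gene, read 1.48 and 1.71, with processed signals of 1064 and 842 units in deficient samples against 241 and 81.3 in control samples. Il18r1, an interleukin 18 receptor subunit gene, read 1.30 and 1.44 with the control well above background on 1 array, and Ifngr1, of the interferon gamma receptor, read 1.03 and 1.49 where the running median of genes of like intensity was 0.22. These 4 were the genes of the list at least 2-fold higher on both arrays. The list's remaining receptor genes went both ways: Il2rb averaged 0.95 and Il12rb1 0.94, whereas Il15ra averaged -0.14, Il2rg -0.17, Ifngr2, the partner of Ifngr1, -0.39 and Il21r -0.52. The kinase genes were as mixed, with Jak3 at 0.45, Tyk2 at 0.36, Jak1 at 0.04 and Jak2 at -0.49. Of the STAT transducers named here, Stat4 averaged 0.33, Stat3 0.25, Stat5b -0.28 and Stat5a -0.46. Bcl11b, which the design itself targets, had the lowest ratio of this list.

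Of 20 genes known as targets of T-bet and Eomes, 12 were tested, with a median of 0.44. Without the filter on dim signal the median was 0.17, and with negative controls subtracted it was 0.69. At an unadjusted p under 0.05, 7 were higher and 0 lower (15.1% and 14.1% of all genes), and separate-channel limma called 3 higher and 0 lower (4.75% and 3.83%). Klrd1, which encodes the NK receptor chain CD94, read 1.23 and 1.33, with processed signals of 964 and 791 units in deficient samples against 347 and 236 in control samples. Il12rb2, above, also belongs to this list, and Prf1 had its lowest ratio, at -0.21 ± 0.10. Ifng, Gzmb, Ccl3, S1pr5, Klrg1, Hlx, Itga2 and Ncr1 were well above background on both arrays in neither group and were not tested. These include the interferon gamma and granzyme B genes, the usual effector products of both factors.

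**Figure D4:**
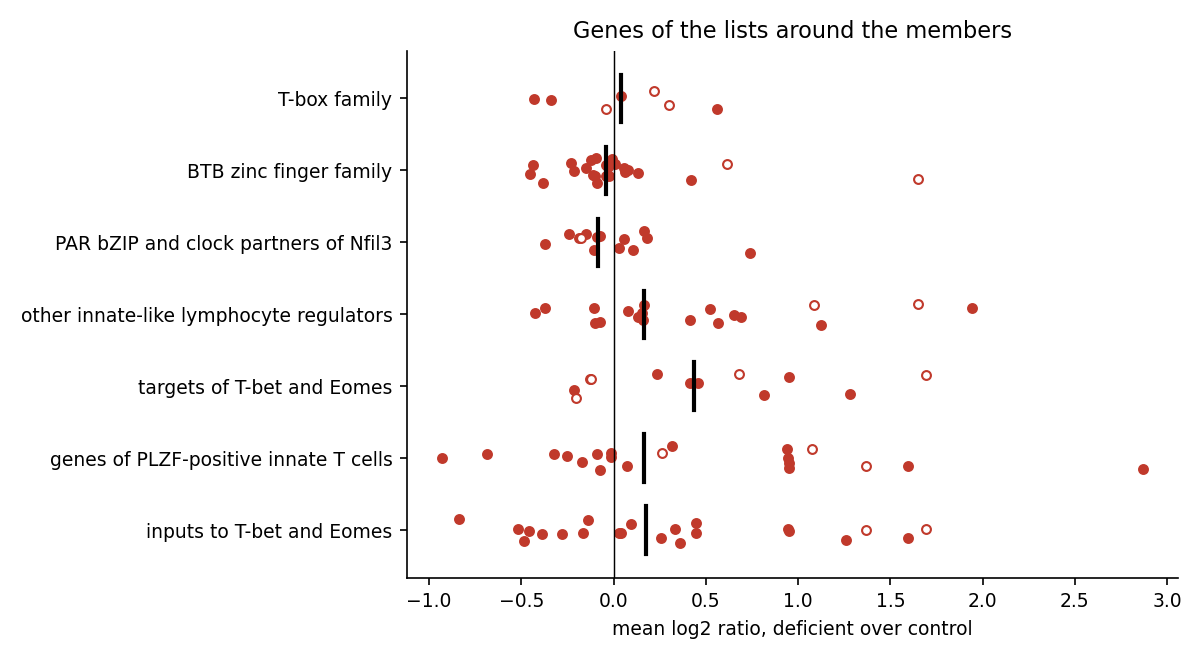
Mean log2 ratio of deficient over control for each tested gene of the 7 related lists, with black bars at list medians and open circles for genes well above background on both arrays in only 1 group. The medians run from -0.08 for partners of Nfil3 to 0.44 for targets of T-bet and Eomes, and single genes from -0.93 (Slamf1) to 2.87 (Klrb1c).

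Genes known from PLZF-positive innate T cells were read in place of Zbtb16, whose own level was not analysed. Of 25 genes, 20 were tested, with 10 higher and 4 lower at an unadjusted p under 0.05 (15.1% and 14.1% of all genes) and 7 higher and 2 lower by separate-channel limma (4.75% and 3.83%). The median was 0.17, and 0.07 without the filter on dim signal. Over genes well above background in both groups the median was -0.01. Klrb1c had the highest ratio, with processed signals of 1299 and 2530 units in deficient samples against 133 and 85.6 in control samples. Il7r and Il18r1, given above, were also at least 2-fold higher on both arrays. Slamf1, which encodes a SLAM receptor that helps NKT cells to be selected, was lowest at -0.90 and -0.96, with 1157 and 959 units in deficient samples against 2274 and 2076 in control samples. Il4 and Il13, cytokine genes of PLZF-positive cells, were well above background on both arrays in neither group.

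Among other regulators of innate-like lymphocytes, 19 of 24 genes were tested, with 9 higher and 2 lower at an unadjusted p under 0.05 (15.1% and 14.1% of all genes). Separate-channel limma called 6 higher and 0 lower (4.75% and 3.83%). The median was 0.17, and 0.57 with median centring. Id2, the inhibitor of E proteins that innate lymphoid cells require, read 1.46 and 2.42 by its brighter probe and 1.27 and 1.94 by the other. Its processed signals by the brighter probe were 2424 and 3658 units in deficient samples against 800.4 and 595 in control samples, with no overlap. Zbtb7b encodes ThPOK, a BTB zinc finger factor that commits thymocytes to the CD4 lineage. In the control channel neither array measured it well above background, so its ratio is given as an untested bound: at least 2.69-fold higher. The fitted log2 ratio was 1.65 (limma adjusted p = 0.0736). Ikzf2, which encodes Helios, read 1.05 and 1.20, and its 4 other probes averaged 0.48 to 1.04. Myb had the lowest ratio at -0.43 ± 0.11, and its 3 other probes averaged -0.21 to 0.06.

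Structural relatives of the members came next. Of 15 other T-box genes 7 were tested, with a median of 0.04, 3 higher and 2 lower at an unadjusted p under 0.05 (15.1% and 14.1% of all genes) and 0 higher and 1 lower by separate-channel limma (4.75% and 3.83%). They ran from -0.43 ± 0.08 for Tbx2 to 0.56 ± 0.12 for Tbx6, and none was at least 2-fold changed on both arrays. Of 29 other BTB zinc finger genes 24 were tested, with a median of -0.04, 3 higher and 4 lower at an unadjusted p under 0.05, near the same shares of all genes (15.1% and 14.1%), and 2 higher and 2 lower by separate-channel limma (4.75% and 3.83%). Zbtb7b was highest and Zbtb20 lowest, at -0.45 ± 0.07 by its brightest probe, with its other 2 probes at -0.23 and -0.07. Zfp131, next to it, averaged -0.44. Partners of Nfil3 in the clock and its relatives among the basic leucine zipper factors had a median of -0.08 over 14 of 15 genes, with 1 higher and 1 lower at an unadjusted p under 0.05 (15.1% and 14.1% of all genes) and 0 called by separate-channel limma (4.75% and 3.83%). Cebpb read 0.36 and 1.12 by its brighter probe, but 0.18 on average by the other, and Nr1d2, a nuclear receptor of the clock that represses transcription, read -0.30 and -0.45. Median centring turned the medians of the BTB and clock lists to 0.09 and 0.06, and it raised the median of all genes to 0.13.

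Likeness in pattern was measured as the Euclidean distance between pairs of log2 ratios over the 2 arrays, among genes with a mean log2 intensity within 0.5. With 2 points per gene it is a description only. For Nfil3 the nearest of 2246 genes were Slco4a1 (0.56 and 0.76), Serp2 (0.49 and 0.77) and Ifi204 (0.53 and 0.70), and 10 genes lay within a distance of 0.1. The nearest to Tbx21 among 2358 genes were Fam171a2, Pnp and Mtm1, with 39 genes within 0.1. Eomes had 90 of 4857 genes within 0.1, so genes with such small ratios were common.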

How the data were processed

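RNA of the DP thymocytes was amplified and hybridised to 2-colour arrays, 2 per comparison, and both were read on 1 slide. Scans were read with Feature Extraction 9.5.3.1 from Agilent, per the submitters' processing notes. The deposited mean and local background signals are scanner intensity with no correction. The deposited processed intensity is corrected for background, spatial trend and dye. The deposited log10 ratio is that of processed Cy5 over Cy3, but is set to 0 at spots with substituted dim signals (13241 and 14823 spots that are not controls). The deposited series table differed from that log10 ratio by at most 0.00500.

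Here signals were corrected with normexp (offset 50) and loess within arrays (R 4.3.3, limma 3.58.1, statmod 1.5.0), with controls at weight 0 and 108 and 116 flagged spots left out. Probes well above background on both arrays in either group were kept (21538 of 41174), named through RefSeq, and the brightest represented its gene. The mean log2 ratio was tested against 0 with limma (1 residual and 2.51 prior degrees of freedom), with Benjamini-Hochberg adjustment over all genes and a threshold of 0.05. An exact permutation of 2 arrays cannot go below p = 0.5. Negative controls had medians of 923 and 1036 units in deficient channels and 696 and 732 in control channels. The number of arrays limits the precision of all values.

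Members and lists were chosen with earlier results of these data known. The text names every member, then from each list at most 6 genes by absolute mean ratio that passed the test or, where none did, were at least 2-fold changed on both arrays, and the highest and lowest, and the 3 genes nearest to each member. Alternatives covered background, normalization, filter, probe rule, test, the series table and each array alone. The value of 1 gene of a list is not reported here.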

Additional observations from a re-analysis of the deposited data

How the results depend on the processing

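Nfil3, Tbx21 and Eomes kept a positive mean in all 13 alternatives that use both arrays. Those that changed only the filter, the test or the probe rule reused the same normalized ratios. They gave the main mean again for Tbx21 and Eomes and 0.63 or 0.64 for Nfil3, so they are no separate check of the sign. Nfil3 passed the threshold with median centring (0.77, limma adjusted p = 0.0461), subtraction of negative controls (0.83, 0.0496), separate-channel limma (0.64, 0.0347) and a variance trend in limma (0.64, 0.0330), and missed it in the other 9 (adjusted p 0.0663 to 0.120). Each array alone, a value with no test, gave 0.52 to 0.75 for Nfil3, 0.10 to 0.33 for Tbx21 and -0.04 to 0.23 for Eomes. Adjusted p ranged from 0.117 to 0.303 for Tbx21 and from 0.444 to 0.689 for Eomes. Genes called over all genes numbered 0 in the main setting (4360 at an unadjusted p under 0.05), and 215 with processed signals (112 higher), 982 with median centring (877), 1170 with negative controls subtracted (624), 1281 with separate-channel limma (709), 124 with the series table (70) and 2184 with the variance trend (1146). The other alternatives called 0. The main test is itself paired, since each ratio sets 1 deficient sample against the control sample of its own array. List medians changed sign for T-box genes without the filter (-0.04) or with both channels well above background (-0.15), and with that setting also for PLZF-positive (-0.01) and stromal genes (-0.11). They did so for BTB (0.09), clock (0.06) and DP genes (0.26) with median centring, for clock (0.00) and B cell genes (0.02) without replicate 1, and for erythroid genes without replicate 2 (-0.37). Of 20 targets of T-bet and Eomes, 8 were well above background on both arrays in neither group.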

Other observations

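Values outside the lists around the members were chosen here after they were seen, and no cause was tested. Cd163l1, a scavenger receptor gene of gamma delta T cells, read 1.36 and 1.59 on the log2 scale of deficient over control (limma adjusted p = 0.0651), while Il17a, the cytokine gene of such cells, read 0.17 and 0.16, and Blk, the other tested marker of them, -0.17 and -0.23. Sox13 and Il23r were well above background in neither group. Dntt, which encodes terminal transferase, read 1.71 and 1.45 where the running median of genes of like intensity was 1.26, whereas the recombinase genes Rag1 and Rag2 read -0.23 and -0.32, and -0.43 and -0.71 (running median at Rag1 1.07). Globin genes turned between the arrays: Hba-a1 read -0.42 on replicate 1 and 2.26 on replicate 2, and Hbb-bt -0.35 and 2.86. Stromal, epithelial and endothelial markers went both ways: Pdgfrb was highest at 1.19 and 2.74, while Pdgfra read -0.10 and -0.12, Krt5 -0.44 and -0.09 and Epcam -0.44 and -0.38.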
